A study of Homo sapiens with 18 samples.

Results

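The genes of the cytosolic ribosomal proteins were followed across 6 conditions of an NRF1 rescue experiment. Members were chosen by gene symbol, as every gene named for a protein of the large (RPL) or small (RPS) subunit with a mean of at least 100 counts over the 18 libraries, without the RPS6K kinases and without pseudogenes. This gave 83 genes of 58870 in the table, 51 of the large and 32 of the small subunit. Of the 85 symbols that fit, 2 fell under the minimum (RPL3L and RPL10L), and all 83 members passed the filter on low counts that left 17962 genes tested. NRF1 is a DNA-binding factor of GC-rich promoter sites, known for its control of genes for mitochondria, the cell cycle and protein synthesis. The study asked what its alternative exon 7 does. Poly(A) RNA-Seq was done in HEK293 Flp-In cells, which derive from human embryonic kidney and hold a single docking site for transgenes.

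Each condition had 3 libraries. The conditions were siNRF1 with NRF1-ΔE7, siNT with NRF1-ΔE7, siNRF1 with NRF1-FL, siNT with NRF1-FL, siNRF1 without a transgene, and siNT without a transgene. siNRF1 is a single siRNA against NRF1 and siNT is a non-targeting one. NRF1-FL holds exon 7 and NRF1-ΔE7 (NRF1-DE7 in the labels) lacks it. Both are FLAG-tagged cDNAs that the siRNA does not match, stably inserted and driven by doxycycline, which per the labels was given 24 h after transfection. The study's methods give a shorter interval. All 18 libraries are labelled as treated with siRNA and doxycycline. Whether the cells without a transgene carried an empty construct is left unsaid in the labels and methods, and each transgene was tested in 1 line, so isoform and line cannot be told apart. No source says that replicates came from different cultures, and the p-values then reflect only how far these libraries vary, which may be technical.

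A cytosolic ribosome holds an equal number of nearly every one of its proteins, which the cell therefore makes in step. Their mRNAs begin with a C followed by a run of pyrimidines, the 5′ terminal oligopyrimidine (TOP) motif. LARP1 and the mTOR pathway act through that motif on translation and on mRNA stability. Many of the genes host small nucleolar RNAs in their introns, nearly all have processed pseudogenes, and a few have a second expressed gene, a paralog, for a near copy of the protein. Loss of a single copy of several of them causes Diamond-Blackfan anemia, a failure of red cell formation.

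Library totals ran from 31.2 to 44.8 M (mega) counts. The members took 6.79% to 7.81% of a library, and their mean counts ran from 340.4 (RPL22L1) to 133200.0 (RPS2). Replicate 3 of siNRF1 with NRF1-ΔE7 stood apart from its group by its share of member counts, and the results of the comparisons that use it are given without it as well where a call was lost or a median moved by over 1.5 times. Of 9 marker genes of HEK293 cells, 8 had a median above 1 CPM (counts per M counts of a TMM-scaled library), and PAX8 did not pass 0.048 CPM. Of 15 markers of blood, liver, connective tissue, skin, vessel and muscle cells, 13 had a median under 1 CPM. HBA1 and COL1A1 did not, and the 15 summed to 26.8 to 39.2 CPM with siNRF1, against 17.96 to 19.2 CPM with siNT, without a transgene. Transcripts of mitochondrial DNA also moved with the siRNA, at 1.28% to 1.60% of counts in siNRF1 and 0.966% to 0.975% in siNT cells. The part of either in the results below was not tested. In bulk RNA, fewer cells of a type and less RNA per cell cannot be told apart.

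NRF1 itself followed the labels. Its RNA had 7.19, 9.25 and 7.70 CPM in siNRF1 cells, against 31.1, 29.9 and 29.3 CPM in siNT cells without a transgene. The log2 fold change was -1.92 ± 0.0605 (edgeR quasi-likelihood test, adjusted p = 5.9e-18). Here and below, ± is the standard error of a log2 fold change and p-values are adjusted over all genes tested by Benjamini-Hochberg. In the NRF1-ΔE7 line it had 37.3, 37.9 and 39.9 CPM with siNRF1 and 58.7, 58.99 and 57.9 CPM with siNT, and in the NRF1-FL line 49.3, 50.4 and 49.1 CPM with siNRF1 and 52.4, 55.7 and 55.2 CPM with siNT. Reads of the transgene and of the endogenous gene are not separated in these counts. Under siNRF1 the NRF1-ΔE7 line had less NRF1 RNA than the NRF1-FL line (log2 fold change -0.37 ± 0.0451, adjusted p = 9e-07).

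Between siNRF1 and siNT libraries the members did not move as a block. Most genes of the large subunit fell, those of the small subunit split between both directions, and 1 assembly-related paralog, RPL7L1, fell far more than any other. Without a transgene, 23 of 83 members were higher and 50 lower with siNRF1 than with siNT at an adjusted p under 0.05, where 32.1% of all genes tested were higher and 32.4% lower. In the NRF1-ΔE7 line 21 were higher and 50 lower (all genes: 34.5% and 33.6%), and in the NRF1-FL line 16 were higher and 51 lower (all genes: 32.2% and 31.3%). These 3 comparisons share no library. In all 3, 49 members fell and 16 rose, where 26.6% of all genes fell and 25.8% rose in all 3. No member was called in opposite directions, 12 were called in 1 or 2 comparisons, and 6 in none, among them RPL23A, RPL26L1, RPS9, RPS16 and RPS26.

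Most of the members' changes were small, under an absolute log2 fold change of 0.5. Past an absolute log2 fold change of 0.5, 1 member was higher and 5 lower without a transgene, where 13.7% of all genes were higher and 15.2% lower. In the NRF1-ΔE7 line the counts were 1 higher and 5 lower (all genes: 16.0% and 16.8%), and in the NRF1-FL line 1 higher and 11 lower (all genes: 13.1% and 14.0%). The 11 of 83 lower in the NRF1-FL line were near the share of all genes. The median log2 fold change of the members was -0.19 without a transgene, -0.16 in the NRF1-ΔE7 line and -0.25 in the NRF1-FL line, beside 0.0082, 0.023 and 0.023 for all genes. Member by member, the 3 comparisons ran close together, with Pearson's r of 0.992 between cells without a transgene and the NRF1-ΔE7 line, 0.991 with the NRF1-FL line, and 0.986 between the lines (83 genes, a description, since the points share 1 fit and each gene's own sequence).

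**Figure D1:**
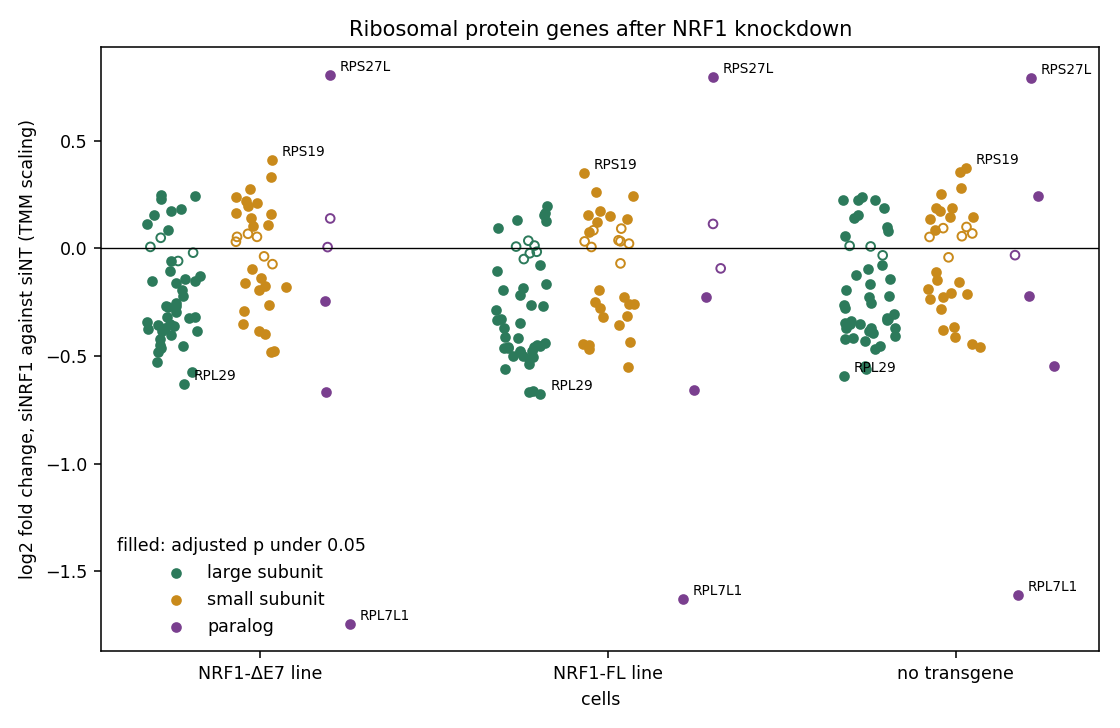
Each point is 1 of the 83 genes, and the y axis gives the log2 fold change of siNRF1 against siNT in the NRF1-ΔE7 line, the NRF1-FL line and cells without a transgene (n = 3 libraries a group, TMM scaling), with filled points called at an adjusted p under 0.05. RPL7L1 lies apart at -1.74, -1.63 and -1.61, RPS27L is highest at 0.81, 0.80 and 0.79, and most large-subunit genes lie below 0, where the medians of all 83 move toward 0 with other scalings of the libraries.

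How far the members fell depended on the scale. TMM, the scaling used throughout, takes most genes as unchanged. By the tests above most genes were called, so that premise was not met by these calls. Those not called were 6379 of 17962 without a transgene, 5723 in the NRF1-ΔE7 and 6548 in the NRF1-FL line. The siNRF1 libraries had TMM factors of 1.04 to 1.05 without a transgene, against 0.953 to 0.955 in siNT, so TMM and the plain library total place them differently. On library totals the members' median was -0.0022 in the NRF1-ΔE7 line, -0.11 in the NRF1-FL line and -0.061 without a transgene, while the median of all genes stood at 0.18, 0.16 and 0.14. Then 31 members were higher and 38 lower without a transgene, 34 and 35 in the NRF1-ΔE7 line, and 30 and 44 in the NRF1-FL line. On that scale 42.4% of all genes were higher and 24.1% lower without a transgene, 45.7% and 24.4% in the NRF1-ΔE7 line, and 43.9% and 22.4% in the NRF1-FL line. Without a transgene, upper-quartile scaling gave 30 members higher and 43 lower (all genes: 38.8% and 26.9%). Scaled to their own total, the members split about evenly by construction, and their median turned to 0.0077 in the NRF1-ΔE7 line. Library totals and the members' own total both moved the fold changes upward, so a rise could hardly lose its call while a fall could. The 16 members that rose in all 3 comparisons did so on library totals as well, and 34 of the 49 that fell in all 3 kept that call (on their own total, 16 and 31). With the members newly called there, 30 rose and 34 fell in all 3 on library totals. On their own total 33 rose and 31 fell in all 3. A scaling shifts every gene of a comparison alike, so the distance from the median of all genes is by construction about the same on any scale, here -0.20 without a transgene, -0.18 in the NRF1-ΔE7 line and -0.27 in the NRF1-FL line.

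**Figure D2:**
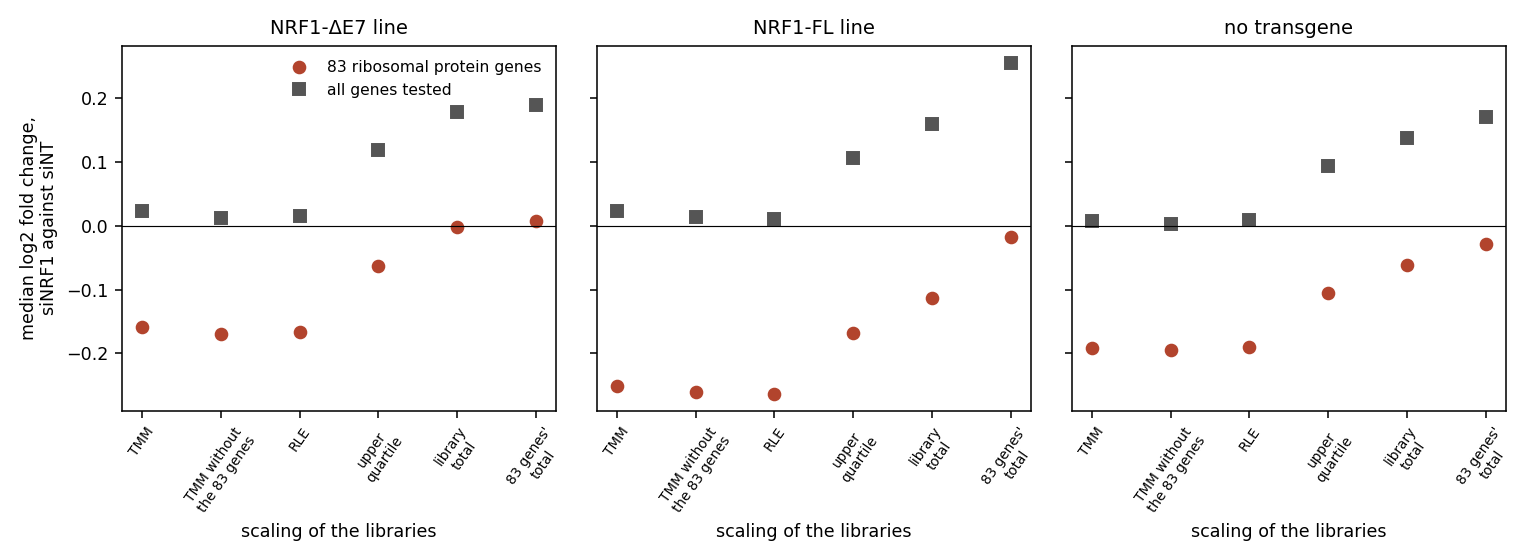
The y axis gives the median log2 fold change of siNRF1 against siNT (n = 3 libraries a group) for the 83 genes (circles) and for all genes tested (squares), and the x axis the way the libraries were scaled, in the NRF1-ΔE7 line, the NRF1-FL line and cells without a transgene. The distance between circles and squares is fixed by construction, at about -0.18, -0.27 and -0.20, while the height of the circles moves with the scale and crosses 0 in the NRF1-ΔE7 line when they are scaled to their own total.

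The start sites of some of the genes that moved most are shown as examples with and without the pyrimidine run for which these mRNAs are known. Each line gives 30 bases before to 10 bases after the start of transcription (RefSeq, GRCh38.p14), in the direction of transcription, with capitals for a C and the pyrimidines that follow it.
RPL7L1 (fell, chr6:42879586-42879625, plus strand): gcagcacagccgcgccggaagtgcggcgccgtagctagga
RPL29 (fell, chr3:51995886-51995925, minus strand): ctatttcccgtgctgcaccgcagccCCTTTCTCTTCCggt
RPL38 (fell, chr17:74203648-74203687, plus strand): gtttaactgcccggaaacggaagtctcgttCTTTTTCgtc
RPL15 (fell, chr3:23916515-23916554, plus strand): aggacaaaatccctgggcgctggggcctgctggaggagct
RPS27L (rose, chr15:63157468-63157507, minus strand): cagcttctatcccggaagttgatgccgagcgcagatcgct
RPS19 (rose, chr19:41860225-41860264, plus strand): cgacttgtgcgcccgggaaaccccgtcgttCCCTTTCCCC
RPS27 (rose, chr1:153990732-153990771, plus strand): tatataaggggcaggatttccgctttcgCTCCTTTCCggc
RPL29, RPL38, RPS19 and RPS27 begin with a pyrimidine run whether they rose or fell, and RPL7L1, RPL15 and RPS27L show none there. Annotations differ on some starts. The RPL15 stretch ends before the start of its gene in GENCODE v44, and those of RPL38 and RPS27L lie inside theirs. Starts outside the RefSeq list were not searched. RPL7L1 and RPS27L hold the ETS motif CCGGAAG in the stretch shown. A start window was listed for 67 of the 83 members. A C with at least 4 pyrimidines after it, within 5 bases of the start, was found in 55 of them (82.1%, against 25.2% of 27305 genes). It was present in 31 of 39 members that fell in all 3 siRNA comparisons and in 12 of 14 that rose in all 3.

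RPL7L1 changed more than any other member in each siRNA comparison. Its product is related to RPL7 and is the counterpart of a yeast factor of large-subunit assembly, and the gene lies at chr6:42879616-42889925, plus strand (hg38). It had 192, 186 and 189 CPM in siNRF1 cells, against 583, 577 and 569.98 CPM in siNT cells without a transgene. In the NRF1-ΔE7 line it had 165, 169 and 167 CPM with siNRF1 and 559, 561 and 558 CPM with siNT, and in the NRF1-FL line 192, 184 and 191 CPM with siNRF1 and 584, 588 and 579 CPM with siNT. In each setting the siNRF1 libraries held a clearly lower level and no values overlapped. The log2 fold changes were -1.61 ± 0.0235 (adjusted p = 9.1e-24) without a transgene, -1.74 ± 0.0235 (adjusted p = 1.5e-24) in the NRF1-ΔE7 line and -1.63 ± 0.0235 (adjusted p = 7.1e-24) in the NRF1-FL line. The difference between the NRF1-FL line and cells without a transgene was -0.018 ± 0.0326 (adjusted p = 0.86).

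RPS27L was the only member that rose past a log2 fold change of 0.5. It is a target of p53 and encodes a near copy of RPS27, and the gene lies at chr15:63125872-63158021, minus strand. It had 60.2, 69.02 and 68.3 CPM in siNRF1 cells, against 35.6, 40.7 and 37.995 CPM in siNT cells without a transgene. The NRF1-ΔE7 line had 60.6, 63.4 and 70.96 CPM with siNRF1 and 36.6, 37.1 and 37.8 CPM with siNT. The NRF1-FL line had 64.1, 68.9 and 70.2 CPM with siNRF1 and 37.4, 40.5 and 38.98 CPM with siNT. All siNRF1 libraries were above all siNT libraries, with log2 fold changes of 0.79 ± 0.0601 (adjusted p = 5.5e-11), 0.81 ± 0.0594 (adjusted p = 2.7e-11) and 0.80 ± 0.0593 (adjusted p = 4.2e-11) in the same order of settings.

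RPL29, RPL38, RPL15 and RPL39L followed RPL7L1 among the genes that fell. RPL29 and RPL38 are small proteins of the large subunit, RPL15 sits deep in its RNA core, and RPL39L is a paralog of RPL39 known from testis. RPL29 (chr3:51993522-51995895, minus strand) had 429.9, 469.99 and 466 CPM with siNRF1, against 694, 662 and 702 CPM with siNT, without a transgene. RPL38 (chr17:74203582-74210655, plus strand) had 319, 362 and 351 CPM with siNRF1 and 504, 494 and 522 CPM with siNT. RPL15 (chr3:23916591-23924374, plus strand) had 1291, 1394 and 1356 CPM with siNRF1 and 1965, 1915 and 2022 CPM with siNT. None of these groups overlapped, and the log2 fold changes were -0.59 ± 0.0465, -0.56 ± 0.0525 and -0.55 ± 0.0366. The same genes had -0.63, -0.57 and -0.53 in the NRF1-ΔE7 line and -0.67, -0.67 and -0.66 in the NRF1-FL line. RPL39L, one of the least abundant members by count, had 13.2, 12.7 and 11.8 CPM with siNRF1 and 18.3, 17.3 and 19.6 CPM with siNT. Its log2 fold changes were -0.55 ± 0.0576 without a transgene, -0.67 ± 0.0589 in the NRF1-ΔE7 line and -0.66 ± 0.0596 in the NRF1-FL line. Each of these 12 changes had an adjusted p of 1.5e-08 or less.

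Among the genes that rose, RPS19 and RPS20 led after RPS27L, followed by RPS27, RPS28, RPS12 and RPL28. RPS19, which is needed to mature the small subunit and is the gene most often mutated in Diamond-Blackfan anemia, lies at chr19:41860255-41872925, plus strand. It had 1448, 1582 and 1516 CPM in siNRF1 cells, against 1179.6, 1125 and 1202 CPM in siNT cells without a transgene. In the NRF1-ΔE7 line it had 1445, 1444 and 1615 CPM with siNRF1 and 1128, 1130.3 and 1129 CPM with siNT, and in the NRF1-FL line 1453, 1451 and 1415 CPM with siNRF1 and 1098, 1119 and 1171 CPM with siNT. The siNRF1 libraries lay above the siNT ones each time, by 0.37 ± 0.0377 (adjusted p = 7.4e-09), 0.41 ± 0.0377 (adjusted p = 1.3e-09) and 0.35 ± 0.0377 (adjusted p = 2.4e-08). RPS20 rose by 0.35, 0.33 and 0.26, and RPS27 by 0.28, 0.28 and 0.17, given without a transgene, then in the NRF1-ΔE7 and the NRF1-FL line. RPS28 had 0.25 without a transgene (adjusted p = 1.7e-06). RPS12 had 0.24 in the NRF1-FL line (adjusted p = 1.4e-07). RPL28, a large-subunit gene, had 0.25 in the NRF1-ΔE7 line (adjusted p = 7.8e-05).

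**Figure D3:**
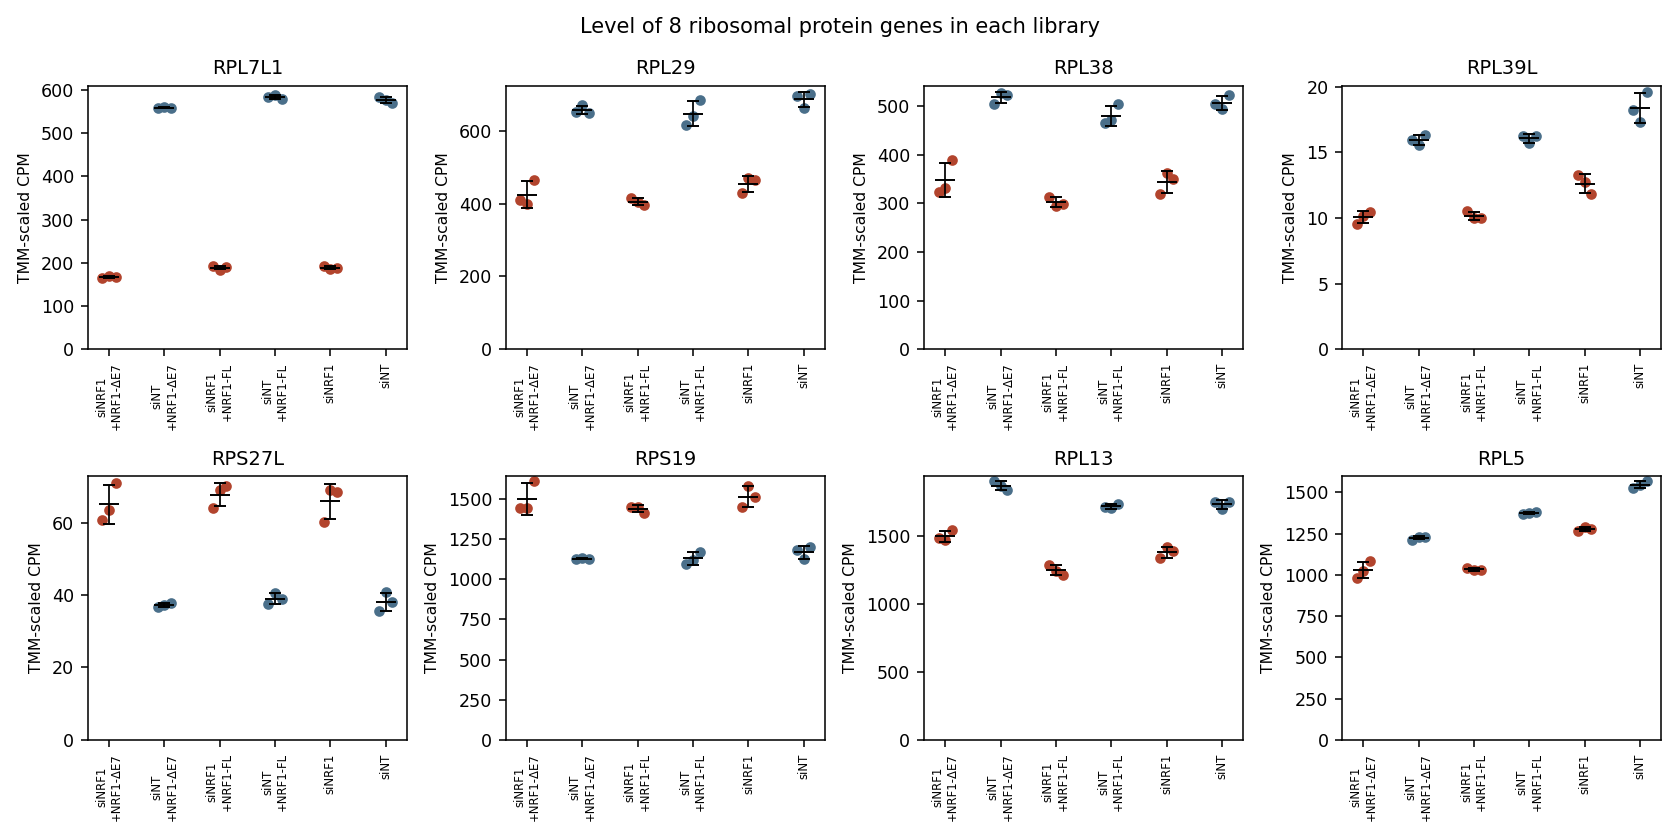
TMM-scaled CPM of 8 members (y axes, from 0) in each of the 18 libraries, by condition on the x axes, with red points for siNRF1, blue points for siNT, and a bar at the mean with its SD (n = 3). The siNRF1 points lie below the siNT points for RPL7L1, RPL29, RPL38, RPL39L, RPL13 and RPL5 in each pair of conditions and above them for RPS27L and RPS19, and RPL13 stands higher in the NRF1-ΔE7 than in the NRF1-FL line under either siRNA.

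By subunit, the paralogs set aside, 33 of 46 large-subunit genes fell and 10 rose without a transgene, with a median log2 fold change of -0.27. Of 31 small-subunit genes 14 fell and 11 rose, with a median of 0.053. For the NRF1-ΔE7 line the counts were 34 lower and 8 higher in the large and 13 lower and 12 higher in the small subunit. Without replicate 3 of siNRF1 with NRF1-ΔE7 they were 35 lower and 6 higher in the large and 15 lower and 10 higher in the small subunit. The small-subunit median of that line was 0.030 with this library and -0.014 without it. For the NRF1-FL line the counts were 34 lower and 6 higher in the large and 14 lower and 9 higher in the small subunit. Of all genes, 32.4% fell and 32.1% rose without a transgene. In the lines it was 33.6% and 34.5% (NRF1-ΔE7) and 31.3% and 32.2% (NRF1-FL). The small subunit's share of genes that rose, 35.5%, 38.7% and 29.0% in the same order, was near that of all genes. The share of one subunit within a library needs no scaling. With the paralogs counted in, large-subunit genes took 59.2% to 59.3% of the members' counts in siNRF1 cells, against 59.9% to 60.3% in siNT cells, without a transgene. The shares were 58.7% to 58.9% with siNRF1 and 59.8% to 60.02% with siNT in the NRF1-ΔE7 line, and 58.7% to 58.9% with siNRF1 and 59.9% to 59.99% with siNT in the NRF1-FL line. None of the 3 pairs overlapped, each with p = 0.10 in an exact two-sided permutation test, the smallest that 3 against 3 libraries allow. With the paralogs, and so RPL7L1, left out, the shares were 59.04% to 59.2% with siNRF1 and 59.5% to 59.96% with siNT without a transgene, 58.5% to 58.7% and 59.5% to 59.7% in the NRF1-ΔE7 line, and 58.5% to 58.7% and 59.5% to 59.6% in the NRF1-FL line, a measure added after the data were seen. Those pairs did not overlap either.

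In the stalk of the large subunit, which recruits the elongation factors, 2 of 3 genes rose in every siRNA comparison (all genes: 25.8%). RPLP0, its base, had 2398, 2534 and 2436 CPM with siNRF1, against 2098, 2022 and 2127 CPM with siNT, without a transgene (0.24 ± 0.0310, adjusted p = 4.3e-07), and was also higher in the NRF1-ΔE7 line (0.23 ± 0.0310) and the NRF1-FL line (0.12 ± 0.0310). RPLP1 rose by 0.23 ± 0.0484, 0.17 ± 0.0484 and 0.13 ± 0.0485 in the same order. Its partner RPLP2 stood at 0.011 ± 0.0277 and -0.020 ± 0.0277, neither called, and fell by 0.10 in the NRF1-FL line (adjusted p = 0.0024), a fall that became a gain of 0.035 on library totals.

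RPL5 and RPL11, which carry the 5S ribosomal RNA into the large subunit and can bind MDM2, both fell. RPL5 had 1266, 1289 and 1278 CPM with siNRF1, against 1526, 1548 and 1567 CPM with siNT, without a transgene (-0.28 ± 0.0263, adjusted p = 2.9e-09). RPL11 had 669, 686 and 674 CPM with siNRF1 and 909.8, 893 and 907 CPM with siNT (-0.42 ± 0.0277, adjusted p = 5e-12). Neither gene's groups overlapped. Some ribosomal proteins are made as fusions with ubiquitin or a ubiquitin-like protein. RPS27A, a ubiquitin fusion, had 0.083 ± 0.0260, called without a transgene (adjusted p = 0.0075, against 0.075 in the NRF1-ΔE7 and 0.29 in the NRF1-FL line). FAU, a ubiquitin-like fusion that encodes RPS30, had -0.069 ± 0.0340, not called, and fell by 0.14 in the NRF1-ΔE7 line and by 0.087 in the NRF1-FL line (adjusted p = 0.00079 and 0.029), and stood at 0.016 and 0.051 on library totals.

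RPSA, also known as the laminin receptor, rose by 0.13 ± 0.0428 without a transgene and by 0.17 ± 0.0427 in the NRF1-ΔE7 line (0.086 without replicate 3 of its siNRF1 libraries), and stood at 0.084 ± 0.0428 in the NRF1-FL line, not called (adjusted p = 0.094). RPL13A, part of an inhibitor of translation in interferon-treated monocytes, rose by 0.23 ± 0.0313, 0.24 ± 0.0313 and 0.16 ± 0.0313 without a transgene, in the NRF1-ΔE7 and in the NRF1-FL line. RPS6, the substrate of the S6 kinases, fell by 0.11 without a transgene (adjusted p = 0.007) and by 0.22 in the NRF1-FL line (adjusted p = 5e-06), and the first of these turned to 0.019 on library totals. It stood at -0.074 ± 0.0344, not called (adjusted p = 0.062), in the NRF1-ΔE7 line, and at -0.14 and called without replicate 3 of siNRF1. RPS26, which contacts mRNA at the exit channel, was not called (-0.042 ± 0.0387, -0.038 ± 0.0386 and -0.070 ± 0.0387). Of the 18 genes of Diamond-Blackfan anemia 13 fell and 4 rose without a transgene (all genes: 32.4% lower and 32.1% higher), with a median of -0.29. The counts were 13 and 4 in the NRF1-ΔE7 line (all genes: 33.6% and 34.5%) and 13 and 4 in the NRF1-FL line (all genes: 31.3% and 32.2%). Those that rose were RPS19, RPS27, RPS28 and RPS29.

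The 6 paralogs can be set against their parent genes within each library, again with no scaling. Per 100 counts of RPL7, RPL7L1 had 24.7 to 25.2 counts with siNRF1 and 54.7 to 58.1 with siNT without a transgene, 22.9 to 24.2 and 56.1 to 57.04 in the NRF1-ΔE7 line, and 27.9 to 28.6 and 59.9 to 60.04 in the NRF1-FL line. RPL7 fell too, by 0.43 without a transgene. RPS27L had 10.9 to 12.5 per 100 counts of RPS27 with siNRF1 and 7.78 to 8.90 with siNT. RPL39L had 1.67 to 1.95 per 100 counts of RPL39 with siNRF1 and 1.97 to 2.11 with siNT, and RPL39 fell as well (-0.35 ± 0.0405). RPL26L1 gained on RPL26, with 6.59 to 7.20 per 100 counts with siNRF1 and 5.58 to 5.65 with siNT. RPL26 fell (-0.31 ± 0.0312) while RPL26L1 was not called (-0.032 ± 0.0457). RPL36AL had 10.9 to 11.3 per 100 counts of RPL36A with siNRF1 and 11.99 to 12.2 with siNT, with log2 fold changes of -0.22 ± 0.0336 and -0.096 ± 0.0283. The fall of RPL36A turned into 0.034 on library totals. For the NRF1-ΔE7 line the ranges with siNRF1 and with siNT were 11.6 to 12.5 and 8.06 to 8.43 for RPS27L, 1.40 to 1.497 and 1.83 to 1.98 for RPL39L, 6.86 to 7.55 and 5.71 to 5.997 for RPL26L1, and 11.1 to 11.6 and 12.1 to 12.6 for RPL36AL. For the NRF1-FL line they were 11.97 to 13.1 and 7.78 to 8.52 for RPS27L, 1.53 to 1.70 and 1.94 to 2.10 for RPL39L, and 6.76 to 7.36 and 5.49 to 6.05 for RPL26L1. There RPL36AL overlapped, at 11.8 to 12.5 with siNRF1 and 11.9 to 12.7 with siNT (exact permutation p = 0.50). RPL36AL in the other settings and the other pairs named so far in all 3 did not overlap, at the smallest exact permutation p of 0.10 (0.207 adjusted over a family of 56 such comparisons). RPL22L1 overlapped in all 3, with 1.51 to 1.70 per 100 counts of RPL22 with siNRF1 and 1.49 to 1.52 with siNT without a transgene, where both genes rose (0.24 ± 0.0810 and 0.14 ± 0.0293). Reads of a pair that are alike in sequence may have been split by the counting.

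The core of the NRF1 binding motif was searched as GCGCATGC on both strands from 250 bases before to 50 after a start. It was found in 3 of 67 members (4.48%, against 3.68% of 27305 genes with a listed start, expressed or not). They are shown with the core in capitals.
RPS10 (chr6:34426060-34426099, minus strand): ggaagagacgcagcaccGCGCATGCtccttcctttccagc
RPL10A (chr6:35468371-35468410, plus strand): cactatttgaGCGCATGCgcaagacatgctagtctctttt
RPL36 (chr19:5690135-5690174, plus strand): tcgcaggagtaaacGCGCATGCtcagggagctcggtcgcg
The core starts 13, 20 and 146 bases before the RefSeq start of RPS10, RPL10A and RPL36. The RPL36 stretch lies inside its gene in GENCODE v44 (chr19:5674947-5691875). All 3 genes fell in each siRNA comparison, but RPL10A stood at 0.013 in the NRF1-ΔE7 line on library totals. RPS10 had 914, 935 and 908 CPM with siNRF1, against 1174, 1195 and 1222 CPM with siNT, without a transgene (-0.38 ± 0.0275). RPL36 had 648, 667 and 637 CPM with siNRF1 and 874, 878 and 863 CPM with siNT (-0.42 ± 0.0264). RPL10A had 588, 622 and 599 CPM with siNRF1 and 690.4, 672 and 704 CPM with siNT (-0.19 ± 0.0356). Their groups did not overlap, and their changes lie within the range of members without the core, RPL7L1 among them. The ETS motif CCGGAAG was in 24 members (35.8%, against 12.2%), the YY1 motif AAGATGGC in 7 (10.4%, against 3.52%), and TATAAA in 6 (8.96%, against 13.99%). A match is a description of letters in the window, not a site in use.

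The siRNA itself is a commercial reagent. Its sense strand, shown because a match of its seed can lower other mRNAs, reads as follows, with capitals for the 7 bases that face the seed of the guide strand.
siNRF1 sense strand: gcuauuguccuCUGUAUCu
Its seed match CTGTATC occurs in the canonical transcript (GENCODE v44) of 4 of 83 members (4.82%, against 18.1% of 12820 transcripts of genes with a mean count of at least 100). The 4 are RPL10, RPL23, RPL37 and RPL39L, and all fell in each siRNA comparison. RPL7L1, RPL29, RPL38 and RPL15 have no such match. A longer transcript leaves more room for a match, and the shares with a seed match were not adjusted for length. The part of seed matches in the changes was not tested. The median GC content of the canonical transcript was 47.3% for the 49 members that fell and 47.2% for the 16 that rose, and 15 of the 49 and 6 of the 16 host an annotated small nucleolar RNA. The median of the mean counts differed more, at 30204 for the 49 and 17493 for the 16. Among members with a listed promoter, the ETS motif was in 38.5% of those that fell and 21.4% of those that rose, and the YY1 motif in 7.69% and 21.4%, differences that rest on 15 against 3 and 3 against 3 genes. Pseudogenes named for a member took more than 5% of its own count for 4 members, RPL23A (24.8%), RPS2 (15.2%), RPL22 (9.41%) and RPL21 (6.43%). Adding the pseudogene counts to the members, an alternative chosen after the data were seen, gave 23 higher and 50 lower without a transgene.

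Whether a transgene brought the members back toward siNT was asked by the difference between the siNRF1 effect in each line and that in cells without a transgene, a comparison added after the data were seen. A member that fell with siNRF1 comes back by a positive difference and one that rose by a negative one. Of the 49 that fell in all 3 siRNA comparisons, 0 were called upward in either line by edgeR, by DESeq2 or at an unadjusted p under 0.05. Of the 16 that rose, edgeR called 0 downward in either line, DESeq2 1 in the NRF1-FL and 0 in the NRF1-ΔE7 line, and 4 and 0 had an unadjusted p under 0.05. Their difference was below 0 for 14 of 16 in the NRF1-FL line (median -0.056) and for 9 of 16 in the NRF1-ΔE7 line (median -0.0028), and for the 49 it was above 0 for 3 in the NRF1-FL and 24 in the NRF1-ΔE7 line. These counts are a description, since the 2 classes were set by the same libraries. Each class also requires a call in both lines, so a member fully brought back in a line could not be in it. Over all 83 members 0 were called higher in either line, both in edgeR and in DESeq2, and also at an unadjusted p under 0.05 in edgeR. In the NRF1-FL line 6 members were lower, all 6 of them among the 49 (all genes: 4.18% higher and 1.15% lower), with a median of -0.068 beside -0.011 for all genes. Among them were RPL12 (-0.14 ± 0.0322), RPL36 (-0.14 ± 0.0374), RPL5 (-0.14 ± 0.0372), RPL13 (-0.13 ± 0.0382) and RPL7A (-0.12 ± 0.0336). The count of 6 ran from 1 to 9 when single libraries were left out, and on the members' own total 0 were lower and 2 higher. In the NRF1-ΔE7 line 1 member was lower, RPL7L1 at -0.13 ± 0.0326 (all genes: 0.440% higher and 1.59% lower), and the median was -0.0018 (-0.046 without replicate 3 of siNRF1 with NRF1-ΔE7). NRF1 RNA itself had 1.78 ± 0.0757 in the NRF1-FL and 1.31 ± 0.0762 in the NRF1-ΔE7 line on this measure.

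Under siNRF1 most members stood slightly higher in the NRF1-ΔE7 than in the NRF1-FL line. Of 83 members 37 were higher and 4 lower, where 13.9% of all genes were higher and 17.8% lower, and the median log2 fold change was 0.075 beside 0.0033 for all genes. The changes ran from -0.18 to 0.27, so none passed 0.5. Both subunits took part, with 24 of 46 large-subunit genes higher (median 0.085) and 12 of 31 small-subunit genes higher (median 0.074). The library of replicate 3 of siNRF1 with NRF1-ΔE7 stood apart, as given above, and without it 25 members were higher and 7 lower (all genes: 11.8% and 14.3%), and the median was 0.047 beside 0.0078 for all genes. The subunit medians were then 0.059 for the large and 0.045 for the small subunit. Scaled to their own total, 12 members were higher and 15 lower.

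RPL13 led the members that were higher. It had 1486, 1468 and 1545 CPM with NRF1-ΔE7, against 1287, 1243 and 1214 CPM with NRF1-FL, under siNRF1, and the groups did not overlap (0.27 ± 0.0270, adjusted p = 6.7e-08). RPL38 (0.20 ± 0.0527), RPS3 (0.20 ± 0.0298), RPL15 (0.19 ± 0.0365) and RPS3A (0.19 ± 0.0387) followed. Without replicate 3 of siNRF1 with NRF1-ΔE7 these 4 stood at 0.12, 0.16, 0.14 and 0.15, and RPL13 at 0.25, all still called. RPS3 sits at the entry of the mRNA channel and had 1117, 1139 and 1235 CPM with NRF1-ΔE7 and 1009, 1033 and 1006 CPM with NRF1-FL. The 4 that were lower were RPL7L1 (-0.18 ± 0.0237), RPL22 (-0.18 ± 0.0293), RPL10 (-0.10 ± 0.0255) and RPL37 (-0.095 ± 0.0352). RPL22, which is not essential for the ribosome and binds several other RNAs, had 553, 559 and 535 CPM with NRF1-ΔE7 and 623, 619 and 619.8 CPM with NRF1-FL. RPL10 joins late and completes the site of peptide bond formation.

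With siNT, where endogenous NRF1 is present, few members differed between the lines. With NRF1-ΔE7 2 were higher than with NRF1-FL and 5 lower, where 7.13% of all genes were higher and 8.42% lower. The number higher ran from 2 to 9 when single libraries were left out. RPL13 (0.12 ± 0.0270) and RPL8 (0.12 ± 0.0286) were higher. RPL37 (-0.21 ± 0.0351), RPL36 (-0.20 ± 0.0264), RPL22 (-0.19 ± 0.0294), RPL5 (-0.17 ± 0.0263) and RPS28 (-0.15 ± 0.0361) were lower. RPL37 had 713, 736 and 727 CPM with NRF1-ΔE7 and 824, 828 and 861 CPM with NRF1-FL. RPL36 had 751, 733 and 738 CPM with NRF1-ΔE7 and 864, 853 and 842 CPM with NRF1-FL. Neither gene's groups overlapped. Over the 83 members the isoform differences under siNRF1 and under siNT, which share no library but share their 2 lines, had a Pearson's r of 0.768 (a description across genes).

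**Figure D4:**
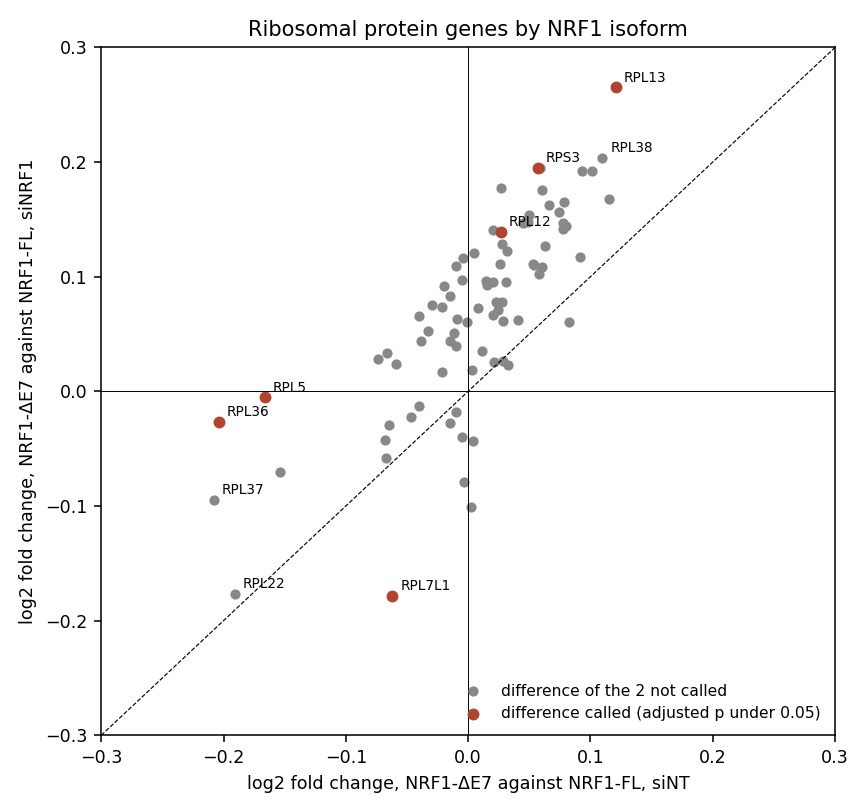
Each point is 1 of the 83 genes, placed by its log2 fold change of NRF1-ΔE7 against NRF1-FL under siNT (x axis) and under siNRF1 (y axis), with the dashed line where both are equal and red points where the difference between them was called at an adjusted p under 0.05 (n = 3 libraries a group). 73 points lie above the line and 10 below it, RPL13 is at 0.12 on x and 0.27 on y, RPL22 is low on both, and RPL5 and RPL36 are low under siNT.

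The difference between these 2 contrasts, which is the interaction of isoform and siRNA, was called for 5 members upward and 1 downward, where 1.64% of all genes were called upward and 5.55% downward. Upward were RPL36 (0.18 ± 0.0374), RPL5 (0.16 ± 0.0373), RPL13 (0.14 ± 0.0382), RPS3 (0.14 ± 0.0421) and RPL12 (0.11 ± 0.0322), and downward RPL7L1 (-0.12 ± 0.0326). RPL5 had 980.3, 1026 and 1082 CPM with NRF1-ΔE7 and 1045, 1028 and 1028 CPM with NRF1-FL under siNRF1, values that overlapped. With siNT it had 1214, 1232 and 1232 CPM with NRF1-ΔE7 and 1367, 1378 and 1381 CPM with NRF1-FL, which did not. RPL12, which lies beside the stalk, had 521, 529.9 and 550.4 CPM with NRF1-ΔE7 and 489.9, 484 and 480.03 CPM with NRF1-FL under siNRF1. The number of upward calls ran from 2 (without replicate 2 of siNRF1 with NRF1-FL) to 15 (without replicate 1 of siNRF1 with NRF1-ΔE7) when single libraries were left out. Without replicate 3 of siNRF1 with NRF1-ΔE7, RPL13, RPS3 and RPL12 were no longer called, and 2 members were upward and 2 downward. On the members' own total 0 were upward and 4 downward.

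Under siNT the transgenes themselves went with slightly lower levels of some members. With NRF1-FL 8 members were lower and 0 higher than without a transgene (0 also in DESeq2 and at an unadjusted p under 0.05 in edgeR, all genes: 5.33% higher and 2.81% lower). RPL39L (-0.20 ± 0.0563), RPL5 (-0.17 ± 0.0263), RPL39 (-0.16 ± 0.0404) and RPL35A (-0.13 ± 0.0316) were among those that fell. With NRF1-ΔE7 14 members were lower and 1 higher (all genes: 8.62% higher and 7.69% lower). RPL5 fell by 0.34, RPL37 by 0.29, RPL36 by 0.24, RPL39L by 0.21 and RPL35A by 0.20, and RPL13 rose by 0.11. RPL5, at 1526, 1548 and 1567 CPM without a transgene under siNT, overlapped with neither line there. These comparisons share their siNT libraries without a transgene. Line and transgene cannot be told apart here. On the members' own total 7 were lower and 3 higher with NRF1-ΔE7, and 2 lower and 1 higher with NRF1-FL. The count of 8 with NRF1-FL ran from 2 (without siNT replicate 3) to 22 (without replicate 3 of siNRF1 with NRF1-ΔE7) when single libraries were left out.

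As a share of all counts, the members took 7.11%, 7.29% and 7.76% with NRF1-ΔE7 under siNRF1, a wider spread than in any other condition, and 6.85% ± 0.0682 with NRF1-FL under siNRF1 (SD, n = 3). The shares were 7.51% ± 0.150 with siNRF1 and 7.68% ± 0.128 with siNT without a transgene, 7.39% ± 0.337 with siNRF1 and 7.44% ± 0.0558 with siNT in the NRF1-ΔE7 line, and 6.85% ± 0.0682 with siNRF1 and 7.32% ± 0.102 with siNT in the NRF1-FL line. These were compared by exact two-sided permutation tests, for which 0.10 is the smallest possible p, so that none can pass 0.05. In the exact tests siNRF1 against siNT gave p = 0.200 without a transgene, p = 0.900 in the NRF1-ΔE7 line and p = 0.10 in the NRF1-FL line, the only one of the 3 without overlap. NRF1-ΔE7 against NRF1-FL gave an exact p = 0.10 under siNRF1, with no overlap, and p = 0.200 under siNT. Both lines lay below the cells without a transgene under siNT, at an exact p = 0.10 each. Without replicate 3 of siNRF1 with NRF1-ΔE7, the other libraries of that condition lay below every siNT library of the line and above every NRF1-FL library under siNRF1, and 17 members were higher and 53 lower with siNRF1 in the NRF1-ΔE7 line (all genes: 32.1% and 32.7%), with a median of -0.21. Adjusted over these 7 tests the smallest permutation p was 0.175.

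**Figure D5:**
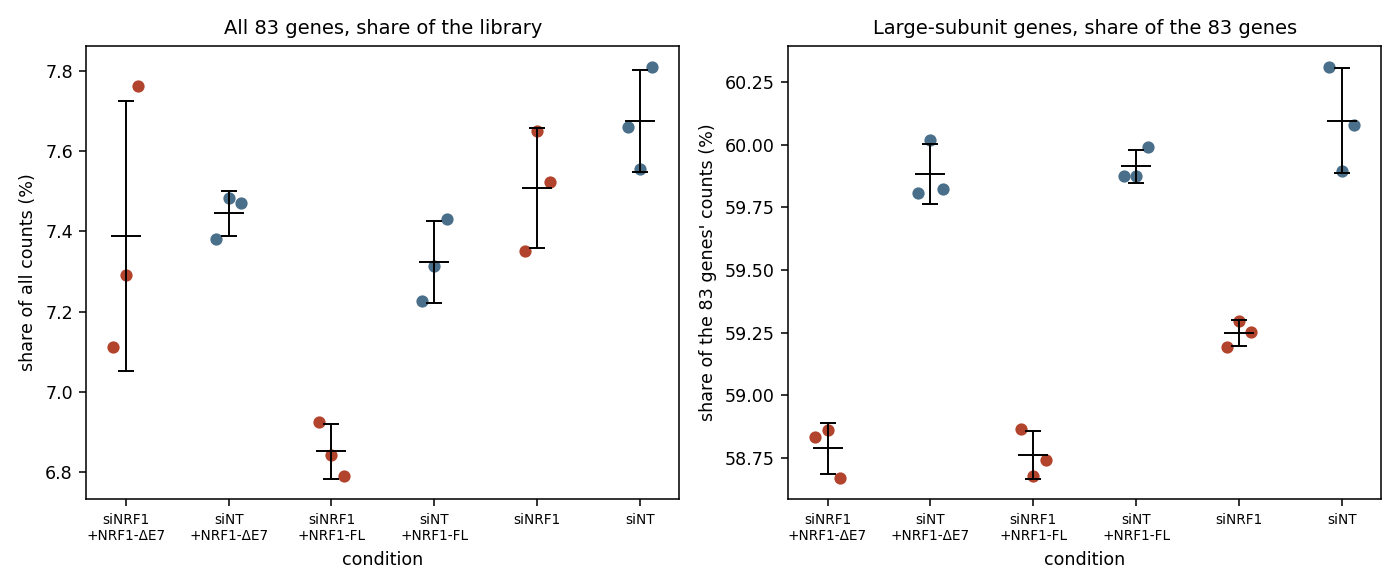
Left, the share of all counts taken by the 83 genes (y axis, percent) in each library, and right, the share of those counts taken by the large-subunit genes, by condition, with red points for siNRF1, blue for siNT, and black bars for mean and SD (n = 3). On the left siNRF1 and siNT separate in the NRF1-FL line and overlap elsewhere, and on the right every siNRF1 library lies below every siNT library, at up to 59.3% against at least 59.8%.

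Of 21 other genes with TOP mRNAs, for translation factors and their companions, 7 rose and 9 fell without a transgene (all genes: 32.1% higher and 32.4% lower), with a median of -0.048. EIF4B (0.41 ± 0.0255), NAP1L1 (0.36 ± 0.0332) and EIF3L (0.30 ± 0.0250) rose most, and EEF1G (-1.01 ± 0.0306), a subunit of elongation factor 1, NPM1 (-0.57 ± 0.0337) and RACK1 (-0.48 ± 0.0292), a protein of the small subunit, fell most. Between NRF1-ΔE7 and NRF1-FL under siNRF1, 8 were higher and 5 lower (all genes: 13.9% and 17.8%), with RACK1 (0.17 ± 0.0292), EEF1G (0.15 ± 0.0305) and EIF3F (0.15 ± 0.0255) highest and NPM1 (-0.14 ± 0.0337), EEF2 (-0.10 ± 0.0315) and HNRNPA1 (-0.096 ± 0.0322) lowest.

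Genes for carriers and assembly partners of single ribosomal proteins included 2 with large changes that differed by isoform. HEATR3, which imports RPL5, had 23.4, 23.1 and 24.2 CPM with siNRF1, against 52.4, 49.9 and 50.9 CPM with siNT, without a transgene (-1.12 ± 0.0543). Under siNRF1 it had 24.2, 27.1 and 28.6 CPM with NRF1-ΔE7 and 43.6, 44.99 and 44.5 CPM with NRF1-FL (-0.73 ± 0.0529, adjusted p = 2.4e-10). PDCD2L, a companion of small-subunit precursors, had 34.8, 34.97 and 35.8 CPM with NRF1-ΔE7 and 55.9, 51.2 and 53.3 CPM with NRF1-FL under siNRF1 (-0.60 ± 0.0380), and 35.5, 34.9 and 35.7 CPM with siNRF1 and 56.9, 56.9 and 55.9 CPM with siNT without a transgene (-0.68 ± 0.0386). For both, the interaction of isoform and siRNA was called (-0.71 ± 0.0727 and -0.58 ± 0.0527). RPL5, the client of HEATR3, had -0.0053 ± 0.0264 between NRF1-ΔE7 and NRF1-FL under siNRF1 and was not called. Under siNT it had -0.17, and its interaction was called upward (0.16). HEATR3 carries the RPL5 protein, and only RNA was measured here. Of the 10 carriers and partners 3 rose and 5 fell with siNRF1 without a transgene (all genes: 32.1% and 32.4%), among them NAP1L1, given above, TSR2 (0.35 ± 0.0320), the carrier of RPS26, AAMP (0.068 ± 0.0290) and RPS19BP1 (-0.27 ± 0.0274). With NRF1-ΔE7 against NRF1-FL under siNRF1, 5 were lower and 1 higher (all genes: 17.8% and 13.9%), NAP1L1 at 0.093 ± 0.0331, and GRWD1, the carrier of RPL3, was lower by 0.25.

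Of 18 genes that control the synthesis of ribosomal proteins 11 fell and 6 rose with siNRF1 without a transgene (all genes: 32.4% and 32.1%), with a median of -0.17. RPS6KA3, a kinase of RPS6, fell by 2.27 on the log2 scale, RPS6KB1, the S6 kinase of the mTOR pathway, by 1.70 and MYC by 1.55, and TSC1 (0.39 ± 0.0328), PIK3C3 (0.22 ± 0.0409) and RPTOR (0.14 ± 0.0373) rose. LARP1, which binds the TOP motif, had -0.63 ± 0.0369. RPS6KB1 had 28.9, 30.6 and 27.6 CPM with NRF1-ΔE7 and 71.4, 71.6 and 74.4 CPM with NRF1-FL under siNRF1 (-1.32 ± 0.0439, adjusted p = 3.2e-16), and 29.6, 30.4 and 29.8 CPM with siNRF1 and 99.4, 100.02 and 92.1 CPM with siNT without a transgene. MYC had 18.6, 17.2 and 16.2 CPM with NRF1-ΔE7 and 22.9, 21.8 and 19.7 CPM with NRF1-FL under siNRF1 (-0.31 ± 0.0667). Between these isoforms 6 of the 18 were lower and 4 higher (all genes: 17.8% and 13.9%), with MTOR at -0.26 ± 0.0303, EIF4EBP1 at 0.29 ± 0.0412, RPS6KA1 at 0.17 ± 0.0401 and PIK3C3 at 0.11 ± 0.0402.

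Over all 6 conditions the steadiest members on the TMM scale were RPL19, RPLP2 and RPS26, whose condition means spanned 0.0865, 0.103 and 0.106 in log2 CPM. Spans this small depend on the scale, and the ranking was not made on library totals. RPL19, often used as a reference gene, had 1237, 1270.0 and 1329.8 CPM with NRF1-ΔE7 and 1345, 1308 and 1293 CPM with NRF1-FL under siNRF1. The widest spans were those of RPL7L1 (1.81), RPL39L (0.870) and RPS27L (0.863), all 3 of them paralogs. RPL7L1 had 165 to 169 CPM with NRF1-ΔE7 under siNRF1 and 579 to 588 CPM with NRF1-FL under siNT.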

How the data were processed

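RNA-Seq was analysed from 18 poly(A) libraries, 3 for each of 6 conditions. The authors trimmed reads with Cutadapt 1.18 and aligned them with STAR 2.7.0f to hg38 with GENCODE v30, and per the notes of the submitters DESeq2 1.46.0 was used. The deposited values are estimated counts per gene, not normalized. The counting tool, its strand setting and its treatment of reads shared by a gene and its pseudogenes are stated in neither the labels nor the methods. Per the labels the kit was stranded. 19.7% of member values were whole, against 91.9% over the table. Another 18 columns match no sample here and were not used.

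Counts were rounded, filtered by filterByExpr (minimum count 10) and scaled by TMM. All libraries were fitted with 1 mean per condition in edgeR 4.0.16 (R 4.3.3, 12 residual degrees of freedom), with two-sided quasi-likelihood F tests and Benjamini-Hochberg adjustment over all genes. Fold changes are log2. Single shares and ratios were compared by exact permutation. The steps were tested on simulated counts in which few genes changed. Totals of 31.2 to 44.8 M counts leave little counting error.

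Members and gene lists were chosen with earlier results of these data known. Genes named are NRF1, genes by role, paralog pairs, the 5 largest called changes per direction and comparison without overlap between groups, the 3 steadiest and 3 most variable members, and the 3 largest per direction of the other lists. PAX8, HBA1, COL1A1, LARP1 and genes shown for a motif, a pseudogene or an added comparison were named after their values were seen. A few genes that the rule named are not reported here. Alternatives were other scalings and filters, a replicate block, DESeq2 1.42.0, the compared libraries only, other fold thresholds, a stricter member minimum and leaving out each library. Library totals and pseudogene counts were added after the data were seen. Positions are from GENCODE v44 on hg38, a later annotation than v30.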

Additional observations from a re-analysis of the deposited data

Results flagged for a closer look

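Of the members, 6 differed in the siNRF1 effect between the 2 transgene lines by the test of the interaction (edgeR, adjusted p under 0.05, n = 3 libraries a group). The difference, NRF1-ΔE7 line minus NRF1-FL line, was 0.18 ± 0.0374 (adjusted p = 0.0032) for RPL36, 0.16 ± 0.0373 (adjusted p = 0.0074) for RPL5, 0.14 ± 0.0382 (adjusted p = 0.02) for RPL13, 0.14 ± 0.0421 (adjusted p = 0.049) for RPS3, 0.11 ± 0.0322 (adjusted p = 0.032) for RPL12 and -0.12 ± 0.0326 (adjusted p = 0.029) for RPL7L1. For the first 5 siNRF1 lowered the gene less in the NRF1-ΔE7 line (-0.39, -0.25, -0.32, -0.18 and -0.36) than in the NRF1-FL line (-0.56, -0.41, -0.46, -0.32 and -0.48). For RPL7L1 it was -1.74 in the NRF1-ΔE7 and -1.63 in the NRF1-FL line. All 6 differences are under 0.2 on the log2 scale, and each line is a single one, so line and isoform cannot be told apart. Scaled to the members' own total, 0 members were called upward and 4 downward. Without replicate 3 of siNRF1 with NRF1-ΔE7, RPL13, RPS3 and RPL12 were no longer called.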

How the results depend on the processing

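Most calls of the named genes did not change with the processing. Over the genes named in the 10 comparisons, 3057 values under alternatives kept their direction and their side of the threshold, 121 lost the call and 12 changed sign. The alternatives include fits without a library from outside the comparison. Over all members, 36 of 50 lower calls of siNRF1 without a transgene were kept on the members' own total and 38 on library totals. The numbers were 34 and 35 of 50 in the NRF1-ΔE7 and 34 and 44 of 51 in the NRF1-FL line. On their own total 2 lower calls turned higher without a transgene and 3 in each line. On library totals 1 did so in the NRF1-ΔE7 line. The counts of called members that moved by over 1.5 times follow, each beside the count from TMM and edgeR. Comparisons are named in short, as siNRF1 (against siNT), the isoforms (NRF1-ΔE7 against NRF1-FL), the interaction (of isoform and siRNA), a transgene under siNT (against none), and a corrected line (its siNRF1 effect minus that without a transgene). Scaled to the members' own total, the counts were 35 higher (against 23) for siNRF1 without a transgene, 35 higher (against 16) for siNRF1 in the NRF1-FL line, 36 higher (against 21) for siNRF1 in the NRF1-ΔE7 line and 12 higher (against 37) and 15 lower (against 4) for the isoforms under siNRF1. Scaled to the members' own total, the counts were 0 higher (against 5) and 4 lower (against 1) for the interaction, 1 higher (against 0) and 2 lower (against 8) for NRF1-FL under siNT, 3 higher (against 1) and 7 lower (against 14) for NRF1-ΔE7 under siNT and 2 higher (against 0) and 0 lower (against 6) for the corrected NRF1-FL line. Scaled to the members' own total, the counts were 0 lower (against 1) for the corrected NRF1-ΔE7 line. On library totals, the counts were 30 higher (against 16) for siNRF1 in the NRF1-FL line, 34 higher (against 21) for siNRF1 in the NRF1-ΔE7 line, 0 lower (against 1) for the interaction and 0 lower (against 1) for the corrected NRF1-ΔE7 line. With upper-quartile scaling, the counts were 25 higher (against 16) for siNRF1 in the NRF1-FL line, 0 lower (against 1) for the interaction and 0 lower (against 1) for the corrected NRF1-ΔE7 line. With RLE scaling, the counts were 2 higher (against 1) for NRF1-ΔE7 under siNT. Without a filter on low counts, the counts were 5 higher (against 2) for the isoforms under siNT, 0 lower (against 1) for the interaction, 2 higher (against 1) for NRF1-ΔE7 under siNT and 0 lower (against 1) for the corrected NRF1-ΔE7 line. With a mean CPM of at least 5, the counts were 2 higher (against 1) for NRF1-ΔE7 under siNT. With only the compared libraries fitted, the counts were 10 higher (against 2) for the isoforms under siNT, 3 higher (against 5) for the interaction, 16 lower (against 8) for NRF1-FL under siNT and 2 higher (against 1) for NRF1-ΔE7 under siNT. With only the compared libraries fitted, the counts were 0 lower (against 1) for the corrected NRF1-ΔE7 line. With DESeq2, the counts were 8 higher (against 5) for the interaction, 2 higher (against 1) for NRF1-ΔE7 under siNT and 14 lower (against 6) for the corrected NRF1-FL line. Past a fold threshold of 0.25 on the log2 scale, the counts were 5 higher for siNRF1 without a transgene, 33 lower for siNRF1 without a transgene, 3 higher and 42 lower for siNRF1 in the NRF1-FL line, 4 higher and 34 lower for siNRF1 in the NRF1-ΔE7 line, 1 higher for the isoforms under siNRF1 and 2 lower for NRF1-ΔE7 under siNT, and 0 in every other comparison and direction. Past a fold threshold of 0.5 on the log2 scale, the counts were 1 higher for siNRF1 without a transgene, 5 lower for siNRF1 without a transgene, 1 higher for siNRF1 in the NRF1-FL line, 11 lower for siNRF1 in the NRF1-FL line, 1 higher for siNRF1 in the NRF1-ΔE7 line and 5 lower for siNRF1 in the NRF1-ΔE7 line, and 0 in every other comparison and direction. The cause of these changes was not tested, other than that a fold threshold leaves fewer calls by construction. Among single genes, those that changed sign on the members' own total were RPL36A at 0.066 (siNRF1 without a transgene), RPS6 at 0.051 (siNRF1 without a transgene), RPL36A at 0.042 (siNRF1 in the NRF1-FL line), RPL36AL at 0.0098 (siNRF1 in the NRF1-FL line), RPLP2 at 0.13 (siNRF1 in the NRF1-FL line), RPS6 at 0.0096 (siNRF1 in the NRF1-FL line), RPL36A at 0.041 (siNRF1 in the NRF1-ΔE7 line) and RPL7 at -0.0011 (the isoforms under siNRF1). Among single genes, those that changed sign on library totals were RPL36A at 0.034 (siNRF1 without a transgene), RPS6 at 0.019 (siNRF1 without a transgene), RPLP2 at 0.035 (siNRF1 in the NRF1-FL line) and RPL36A at 0.030 (siNRF1 in the NRF1-ΔE7 line).

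Leaving out single libraries moved these counts. For the isoforms under siNRF1 the number lower ran from 3 to 7, with 7 without siNRF1+NRF1-ΔE7 replicate 3. For the isoforms under siNT the number higher ran from 2 to 9, with 5 without siNRF1+NRF1-ΔE7 replicate 1, 9 without siNRF1+NRF1-ΔE7 replicate 3. For the interaction the number higher ran from 2 to 15, with 2 without siNRF1+NRF1-FL replicate 2, siNRF1+NRF1-FL replicate 3, siNT+NRF1-ΔE7 replicate 3 and siNRF1+NRF1-ΔE7 replicate 3, 3 without siNT+NRF1-FL replicate 1, siNT+NRF1-FL replicate 2 and siNT+NRF1-ΔE7 replicate 1, 15 without siNRF1+NRF1-ΔE7 replicate 1. For the interaction the number lower ran from 0 to 2, with 0 without siNT+NRF1-FL replicate 3, siNRF1+NRF1-FL replicate 1, siNT+NRF1-ΔE7 replicate 1, siNT+NRF1-ΔE7 replicate 2, siNT+NRF1-ΔE7 replicate 3 and siNRF1+NRF1-ΔE7 replicate 1, 2 without siNRF1+NRF1-ΔE7 replicate 3. For NRF1-FL under siNT the number lower ran from 2 to 22, with 2 without siNT replicate 3 and siNT+NRF1-FL replicate 1, 3 without siNT replicate 1 and siNT+NRF1-FL replicate 2, 4 without siNT+NRF1-FL replicate 3, 17 without siNRF1+NRF1-ΔE7 replicate 1, 22 without siNRF1+NRF1-ΔE7 replicate 3. For NRF1-ΔE7 under siNT the number higher ran from 1 to 2, with 2 without siNT replicate 3, siNT+NRF1-FL replicate 3 and siNRF1+NRF1-ΔE7 replicate 3. For the corrected NRF1-FL line the number lower ran from 1 to 9, with 1 without siNRF1 replicate 2, siNT+NRF1-FL replicate 2 and siNRF1+NRF1-FL replicate 2, 2 without siNT replicate 2, siNT replicate 3 and siNT+NRF1-FL replicate 1, 3 without siNRF1+NRF1-FL replicate 3. For the corrected NRF1-ΔE7 line the number lower ran from 0 to 1, with 0 without siNT replicate 2, siNT replicate 3, siNRF1 replicate 1, siNT+NRF1-ΔE7 replicate 1, siNT+NRF1-ΔE7 replicate 2 and siNT+NRF1-ΔE7 replicate 3. The replicate numbers in the labels were not taken to pair the samples. Over all genes 0 of 21 same-numbered pairs correlated above 0.1 in their deviations from the group means (from -0.037 to 0.041). Over the members alone these correlations ran from -0.632 to 0.751, and for NRF1-FL under siNT all 3 were above 0.1 (0.234, 0.623 and 0.751). With a replicate block 16 members (against 8) were lower for NRF1-FL under siNT and 2 higher for NRF1-ΔE7 under siNT, and no other count of members moved by over 1.5 times. Depth limits only the least abundant members, such as RPL22L1 and RPL39L, and the 3 libraries of a group keep an exact permutation p from falling below 0.10.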
